A study of Mus musculus with 6 samples.

Results

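Inflammasome signalling and pyroptosis, the lytic cell death it triggers, were followed through 10 genes, found by symbol in the expression tables: the sensors Nlrp3, Nlrc4 and Mefv, the NLRP3 partners Nek7 and Txnip, the adaptor Pycard, the caspases Casp1 and Casp4, the pore protein gene Gsdmd and the membrane rupture gene Ninj1. All 10 of 10 were found among 17067 genes in each table, and all 10 passed the filter on low values. The samples were colon macrophages, sorted by flow cytometry for CD45, CD11b and F4/80, from C57BL/6 mice aged 10 weeks in which dextran sulfate sodium (DSS), a polymer that injures the colon lining, had induced colitis. The groups were wild type (WT, 3 samples) and Gsdmd-/- (3 samples), and both received DSS. Samples from mice without colitis were not analysed here, so each comparison is between genotypes within colitis. The labels do not say how the Gsdmd-/- allele was made or whether each sample is a separate mouse. Each p-value of the main test rests on how much the 3 samples of a group vary. For it, the variance of each gene is drawn towards that of all tested genes. The variation between samples may be technical.

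An inflammasome is a protein complex that a sensor assembles in the cytosol when it detects infection or damage. NLRP3 responds to many stimuli that disturb the cell, NLRC4 to bacterial flagellin and secretion systems handed over by NAIP proteins, and pyrin, the product of Mefv, to certain bacterial toxins. The sensors recruit ASC, encoded by Pycard, which activates caspase-1. Mouse caspase-11, encoded by Casp4, instead binds bacterial lipopolysaccharide directly, in what is called the non-canonical pathway. Both caspases cut gasdermin D. Its freed end forms pores in the plasma membrane that release interleukin-1 beta, and ninjurin-1, encoded by Ninj1, then ruptures the membrane. Colon macrophages are known as a main source of interleukin-1 beta in DSS colitis.

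Promoter sequence is shown for 3 of the genes because each holds a match to a searched motif, and because Casp1 and Casp4 are neighbours on chromosome 9 that changed by different amounts. Each run is the 250 bases before an annotated start, 5' to 3' on the gene's strand, from RefSeq on GRCm38.p6, and capitals mark the motif match. Casp4 is at chr9:5308599-5308848, Casp1 at chr9:5298267-5298516 and Txnip at chr3:96557707-96557956, all on the plus strand.
Casp4: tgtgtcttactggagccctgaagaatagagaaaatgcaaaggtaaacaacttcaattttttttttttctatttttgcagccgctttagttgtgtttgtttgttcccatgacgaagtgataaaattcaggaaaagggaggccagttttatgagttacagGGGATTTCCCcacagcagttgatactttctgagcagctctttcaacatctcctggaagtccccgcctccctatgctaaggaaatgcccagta
Casp1: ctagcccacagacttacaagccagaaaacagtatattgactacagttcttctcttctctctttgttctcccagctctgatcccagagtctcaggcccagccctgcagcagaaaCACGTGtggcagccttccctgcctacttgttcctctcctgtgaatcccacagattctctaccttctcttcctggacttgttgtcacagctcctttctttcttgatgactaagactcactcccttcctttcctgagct
Txnip: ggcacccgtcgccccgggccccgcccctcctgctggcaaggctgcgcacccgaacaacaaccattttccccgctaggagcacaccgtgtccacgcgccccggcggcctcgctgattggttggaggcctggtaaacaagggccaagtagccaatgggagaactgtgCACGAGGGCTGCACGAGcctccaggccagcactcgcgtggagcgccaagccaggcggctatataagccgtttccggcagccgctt
The Casp4 capitals match a form of the NF-kB site from base -92 to -83 before the start. Counted from another annotated Casp4 start (window chr9:5308610-5308859) the same letters lie from base -103 to -94. Of 32851 promoter windows of the same length, 0.98% held this motif. The Casp1 capitals are the E-box CACGTG, found in 6.02% of windows, from base -137 to -132. Capitals in Txnip match a pair of E-box-like parts, the form of the carbohydrate response element bound by ChREBP and MondoA, from base -85 to -69, which 0.0457% of windows (15) held. Both strands were searched for these and for the interferon-stimulated response element core (2.98% of windows), the STAT site GAS, TTCNNNGAA (7.02%), and the core bound by ETS factors and PU.1, GAGGAAGT (2.44%). The windows of 9 of the 10 genes were read, as none was available for Gsdmd, whose promoter was not searched. Outside the 3 shown, only Pycard held a match, GAGGAAGT on the opposite strand from base -44 to -37. A match is a description of the letters in these windows, not of binding.

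Levels are given as FPKM, fragments scaled by transcript length and by mapped fragments of the library, so that genes can be set side by side per length. Libraries held an estimated 19520000 to 20160000 mapped fragments each. Changes are Gsdmd-/- minus WT in log2(FPKM + 1), a scale on which changes at low levels appear smaller than they are, and a gene is said to rise or fall with an adjusted p under 0.05 in limma over 10005 tested genes. The 2 groups differed across most of the transcriptome: 77.5% of tested genes passed, 40.6% higher and 36.9% lower, and 79.4% had groups that did not overlap. Changes followed transcript length, with a Spearman correlation of -0.65 across 9777 genes, which are not independent replicates. The median log2 change was 0.54 in the decile of shortest transcripts and -0.49 in that of the longest. The 10 genes are therefore also given with the trend on length and GC content removed, where 60.2% of 9777 genes passed, and on a TPM scale (each sample rescaled to the same sum). Most other pathway genes named are given with the trend removed. On the TPM scale all tested genes had a median of -0.17 in place of 0.03, and 32.9% of the calls were higher in place of 52.4%.

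Sorting markers were present in all samples, at 92.4 and 57.9 FPKM for Ptprc (CD45), 176 and 91.3 FPKM for Itgam (CD11b), and 291 and 216 FPKM for Adgre1 (F4/80) in WT and Gsdmd-/- means. These 3 fell. Of 9 macrophage markers 4 rose and 5 fell as deposited, and 1 rose and 8 fell with the trend removed. All marker counts here are read beside all tested genes, of which 40.6% rose and 36.9% fell as deposited. With the trend removed these shares were 30.3% and 29.9%. The 5 T and NK cell markers in the tables summed to 0.51 FPKM or less in each sample. The 5 epithelial markers in the tables summed to 3.07 to 3.49 FPKM in WT and 1.84 to 2.05 FPKM in Gsdmd-/- samples, mostly Cdh1, which fell from a mean of 3.15 to 1.88 FPKM, while Krt8, Vil1, Muc2 and Cldn7 were at means of 0.0667 FPKM or less. Fibroblast markers, outside the sort, rose in 5 of 5 tested members (7 listed). Their summed level was 19.2 to 20.8 FPKM across WT against 48.9 to 50.9 FPKM in Gsdmd-/- samples. Of these 5, Col3a1 (means of 0.657 and 1.24 FPKM) passed the filter only through the Gsdmd-/- samples, so it could not have been counted as a fall. The untested Pdgfra was at means of 0.183 and 0.287 FPKM and Lum, lower in Gsdmd-/- samples, at 0.113 and 0.0800 FPKM. Neutrophil markers rose in 4 of 4 tested members (10 listed, sums of 38.0 to 41.8 and 50.5 to 54.4 FPKM). Csf3r, at means of 29.6 and 37.5 FPKM, made up most of the sum, and Mmp8 was at 4.87 and 6.17 FPKM. The untested S100a8 (0.417 and 1.19 FPKM), S100a9 (0.370 and 0.600 FPKM) and Camp (0.117 and 0.347 FPKM) also had higher means in Gsdmd-/- samples. Means of the untested Ltf, Retnlg and Ly6g were lower there, with Ly6g at 0.02 and 0.00 FPKM. Of the 5 endothelial markers, Kdr fell from 56.4 to 26.2 FPKM and carried the sum, 56.2 to 59.9 FPKM in WT and 28.3 to 33.2 FPKM in Gsdmd-/- samples. Plvap rose from 0.263 to 1.19 FPKM, but it too passed the filter only through the Gsdmd-/- samples. The means of the other 3 were also higher in Gsdmd-/- samples, at 0.363 and 0.860 FPKM for Pecam1, 0.203 and 0.727 FPKM for Emcn, and 1.24 and 1.46 FPKM for Cdh5. The part of these shifts in the changes described here was not tested, and in bulk RNA fewer cells with a transcript and less of it per cell cannot be told apart.

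Gsdmd, on chromosome 15 at positions 75862144 to 75867408, was the targeted gene. Its level was 97.7, 99.3 and 97.3 FPKM in the WT samples and 28.5, 29.0 and 29.7 FPKM in the Gsdmd-/- samples. The groups were far apart, and each Gsdmd-/- sample kept signal, with a mean at 29.6% of the WT mean. The log2 change was -1.72 (SE 0.0326, limma adjusted p = 1.12e-11), and it was -2.03 after removal of the trend and -1.96 in TPM. Of 10005 tested genes, 10 had a lower change than Gsdmd, and with the trend removed 3 had. Among the 500 tested genes closest to it in length, from 1696 to 1893 bases, the median change was 0.25, against which Gsdmd lay at percentile 0.2. Which exons the remaining signal came from was not analysed here. No RefSeq gene overlaps Gsdmd and no 50-base word of its transcript occurs in a transcript of another gene.

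The 5 tested genes whose levels over the 6 samples, each centred on its own mean, lay closest to Gsdmd were Gdf3, Cpeb4, 9930111J21Rik2, Prrg4 and Itga4, with root mean square differences of 0.0664 to 0.101 in log2. Gdf3 went from 58.3 ± 2.36 to 17.0 ± 0.999 FPKM (SD, n = 3 each), and Prrg4 from 4.53 ± 0.345 to 0.710 ± 0.170 FPKM. With 2 groups this likeness mostly restates a fall of similar size on the log2(FPKM + 1) scale. Itga4 and Cpeb4 were nearer to 0 with the trend removed (-0.84 and -1.31 in log2). Prrg4, with a Gsdmd-/- mean under 1 FPKM, owes its likeness to the added 1. Its change was -1.70 on that scale and -2.53 with 0.1 added instead, where Gsdmd had -1.75.

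**Figure D1:**
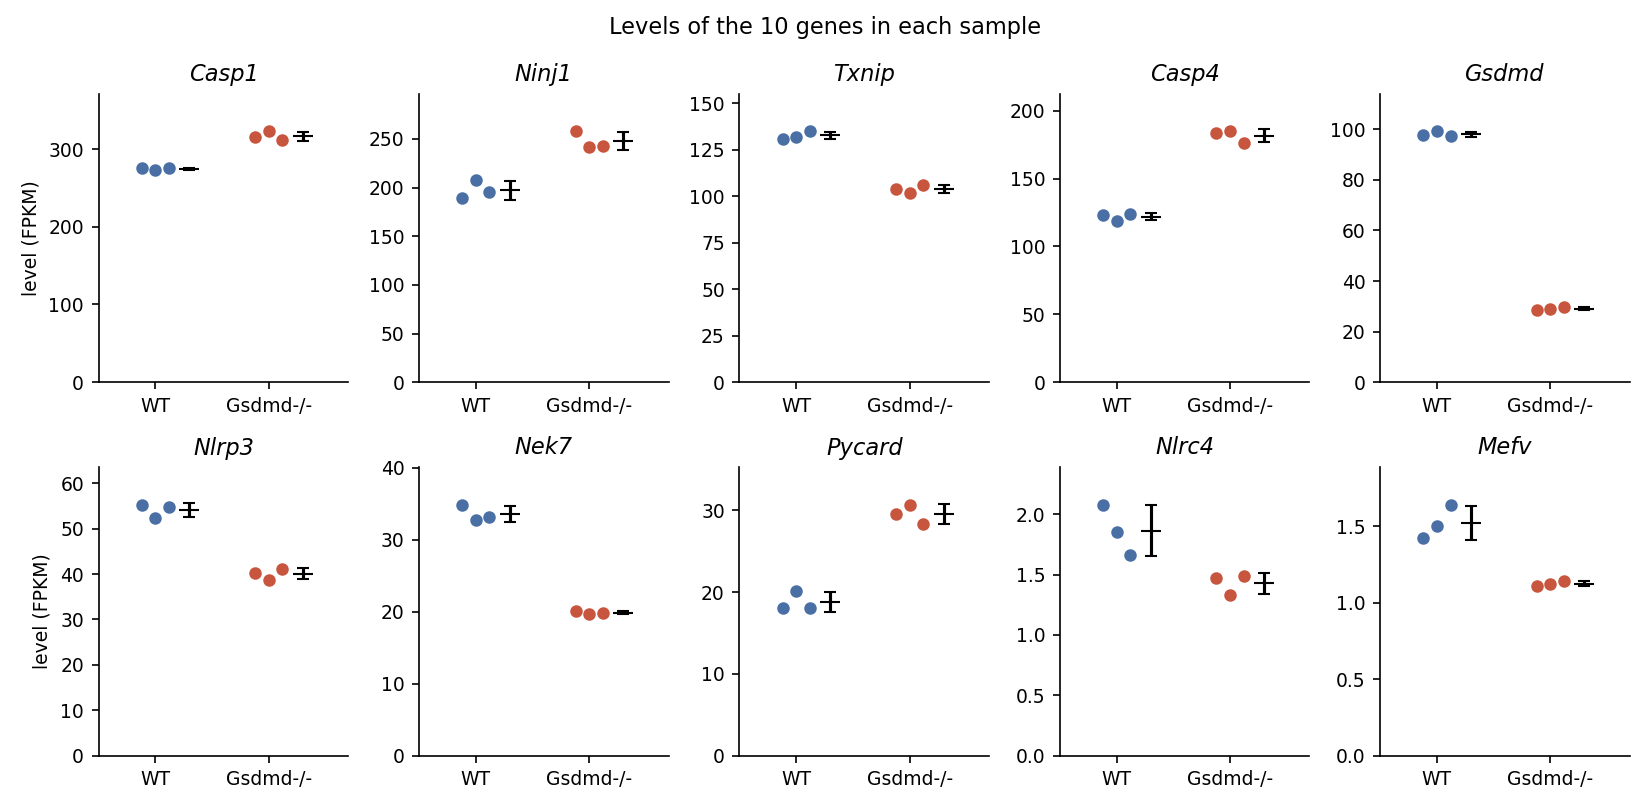
Level in FPKM (y axis, from 0) of each of the 10 genes in the 3 WT (blue) and 3 Gsdmd-/- (red) samples, ordered by WT level, with the group mean and SD as black bars. For each gene the groups do not overlap, and Gsdmd shows the widest gap, from 98.1 to 29.1 FPKM.

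All 10 genes passed the test, 4 higher (Pycard, Casp4, Ninj1, Casp1) and 6 lower (Gsdmd, Nek7, Nlrp3, Txnip, Mefv, Nlrc4), and the groups of all 10 did not overlap. Beside 77.5% of all tested genes past the test and 79.4% without overlap, the share of the 10 that passed is read as no more than a description. With the trend removed 2 rose and 6 fell (30.3% and 29.9% of all genes), in TPM 3 rose and 6 fell (25% and 51.0%, 76.0% in all), and after quantile normalization 3 rose and 6 fell (41.0% and 36.2%, 77.1% in all). The median log2 change of the 10 was -0.24, beside 0.03 for all tested genes. On the 3 scales compared, Gsdmd, Nek7, Nlrp3, Txnip and Mefv were lower and Casp4 was higher, each past the test. Pycard, Ninj1, Casp1 and Nlrc4 lost the call or changed direction on at least 1 of them. The order of levels in WT was Casp1, Ninj1, Txnip, Casp4, Gsdmd, Nlrp3, Nek7, Pycard, Nlrc4 and Mefv. In Gsdmd-/- samples Casp4 stood above Txnip and Gsdmd fell to rank 7, where its samples (28.5 to 29.7 FPKM) lay within the range of Pycard (28.3 to 30.7 FPKM).

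**Figure D2:**
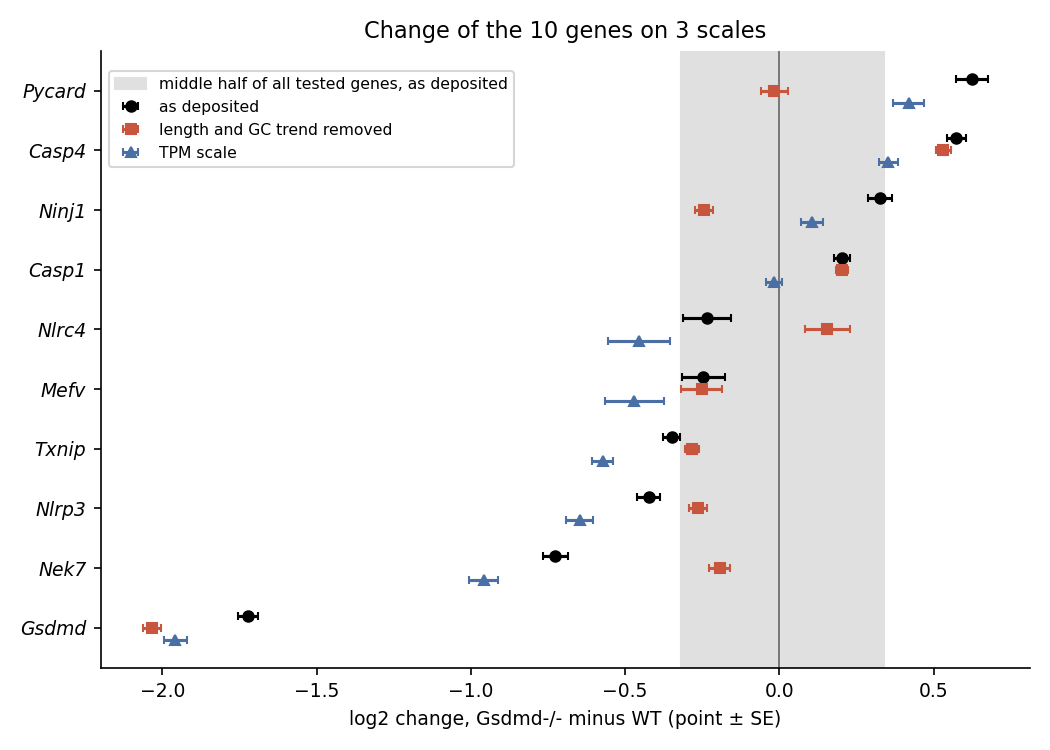
Log2 change of each gene, Gsdmd-/- minus WT (x axis, point and SE), as deposited (black circles), with the length and GC trend removed (red squares) and on the TPM scale (blue triangles). The grey band spans the 25th to 75th percentile of all tested genes as deposited, -0.32 to 0.34, and Pycard and Ninj1 move from above 0 to -0.02 and -0.24 with the trend removed.

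Nlrp3, on chromosome 11 at 59541569 to 59566955, encodes the sensor whose own transcription is induced before it can assemble. It was at 55.3, 52.3 and 54.8 FPKM across WT against 40.2, 38.8 and 41.2 FPKM in Gsdmd-/- samples, so every Gsdmd-/- sample was below every WT sample. Nlrp3 fell to 74.1% of WT (log2 change -0.42, SE 0.0373, limma adjusted p = 6.65e-07). Genes of like length had a median change of -0.19, and with the trend removed Nlrp3 kept a change of -0.26 (adjusted p = 2.51e-05), and it was -0.65 in TPM.

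Nek7 encodes a kinase that bridges NLRP3 subunits in the assembled complex, independently of its kinase activity. It lies on chromosome 1 at 138483837 to 138619757. WT samples held 34.9, 32.7 and 33.2 FPKM and Gsdmd-/- samples 20.1, 19.7 and 19.8 FPKM (SD 0.212). The Gsdmd-/- spread, 1.07% of the mean, was under the 2.37% estimated from fragment counting alone at the lowest sample. It is therefore not read as precision. The fall was to 59.2% of WT (log2 change -0.73, SE 0.0401, adjusted p = 1.48e-08), and the change was -0.96 in TPM. Its transcript is long (4498 bases on average) and low in GC (39.9%), and with the trend removed the change was -0.19 (adjusted p = 0.000657), the nearest to 0 of the 6 genes that fell on that scale.

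Txnip encodes thioredoxin-interacting protein, which binds thioredoxin, limits glucose uptake and has been described as a ligand of NLRP3 under oxidative stress. On chromosome 3 at 96557957 to 96561857, it overlaps the noncoding gene Gm15441, and whether counting used strand is not given in the sources used here. Its level was 131, 132 and 135 FPKM across WT against 104, 102 and 106 FPKM in Gsdmd-/- samples, without overlap. Txnip fell to 78.3% of WT (log2 change -0.35, SE 0.0290, adjusted p = 3.99e-07). Genes of like length had a median change of 0.00, and its change was -0.57 in TPM and -0.28 with the trend removed. Mlxip, which encodes MondoA, a factor known to bind carbohydrate response elements, fell from 13.3 ± 0.270 to 8.16 ± 0.637 FPKM (a log2 change of -0.65, -0.47 with the trend removed). Binding at Txnip was not measured, and a link between the changes of Mlxip and Txnip was not tested. Mlxipl, which encodes ChREBP, was near 0, at 0.0133 and 0.0267 FPKM.

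The other sensor genes were at low level. Nlrc4 (chromosome 17, 74426255 to 74459144, overlapping the pseudogene Gm4708) was at 2.08, 1.85 and 1.66 FPKM across WT against 1.47, 1.33 and 1.49 FPKM in Gsdmd-/- samples, with the lowest WT sample close to the highest Gsdmd-/- sample. That corresponds to an estimated 127 to 198 fragments per sample, and counting error alone is 8.88% at the lower end. Nlrc4 fell by 0.23 on the log2 scale as deposited (SE 0.0765, adjusted p = 0.0143) and had a change of 0.16 (adjusted p = 0.0833) with the trend removed and of -0.46 in TPM. The call was lost without WT replicate 1 (-0.18, adjusted p = 0.0706) and without Gsdmd-/- replicate 2 (-0.20, adjusted p = 0.0509).

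Mefv (chromosome 16, 3706974 to 3718211) was at 1.42, 1.5 and 1.64 FPKM across WT against 1.11, 1.12 and 1.14 FPKM in Gsdmd-/- samples, an estimated 62.0 to 91.0 fragments each. Counting error alone is 12.7% at the lower end, above the 1.36% spread of the Gsdmd-/- samples. Mefv passed the main test as deposited. It fell to 73.9% of WT (log2 change -0.25, SE 0.0702, adjusted p = 0.00680), and its change was -0.47 in TPM and again -0.25 with the trend removed. On the log2(FPKM + 1) scale the changes of Nlrc4 and Mefv are understated the most.

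Pycard, on chromosome 7 at 127991373 to 127993867, encodes ASC, the adaptor whose polymer forms the speck that gathers caspase-1. Its level was 18.1, 20.2 and 18.1 FPKM across WT against 29.6, 30.7 and 28.3 FPKM in Gsdmd-/- samples, higher in each Gsdmd-/- sample. Pycard rose to 157% of WT as deposited (log2 change 0.62, SE 0.0509, adjusted p = 3.46e-07) and had a change of -0.02 with the trend removed (adjusted p = 0.764) and of 0.42 in TPM. That value rests on a coding transcript of 493 bases, and genes of like length had a median change of 0.58. The longer annotated transcript, 3800 bases, exceeds the span of the RefSeq gene, 2495 bases, and with it the change would be 0.91 (adjusted p = 3.39e-07), an alternative added after the data were seen. For Pycard the annotation thus sets whether the gene stands apart from transcripts of its length.

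**Figure D3:**
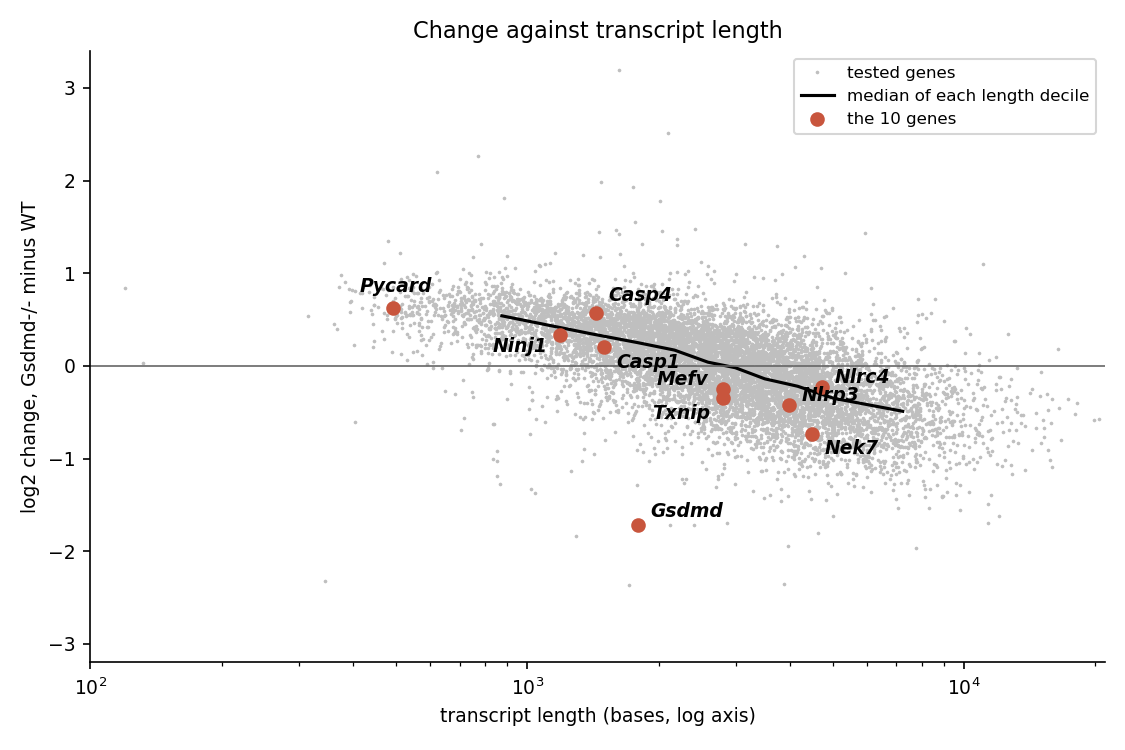
Log2 change, Gsdmd-/- minus WT (y axis), against transcript length in bases (log x axis) for the tested genes (grey), with the median of each length decile (black line, 0.54 to -0.49) and the 10 genes (red). Ninj1 and Casp1 lie below the line, Casp4 lies above it, and Gsdmd lies far below.

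Casp1 and Casp4 sit side by side on chromosome 9, at 5298517 to 5307281 and 5308849 to 5336791, and no 50-base word of their transcripts is shared with another gene. Casp1 encodes the protease that matures interleukin-1 beta and interleukin-18. It had the highest level of the 10, at 276, 273 and 275 FPKM across WT against 315, 323 and 311 FPKM in Gsdmd-/- samples, without overlap. Casp1 rose by 0.20 on the log2 scale as deposited (SE 0.0257, adjusted p = 1.47e-05), with -0.02 in TPM (adjusted p = 0.538) and -0.04 after quantile normalization (adjusted p = 0.136). Genes of like length had a median change of 0.31, above that of Casp1, while the change with length and GC removed together was 0.20. The Casp1 transcript has a GC content of 41.1%.

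Casp4 was at 123, 119 and 124 FPKM across WT against 184, 185 and 176 FPKM in Gsdmd-/- samples, so the lowest Gsdmd-/- sample was well above the highest WT sample. Casp4 rose to 149% of WT (log2 change 0.57, SE 0.0303, adjusted p = 1.07e-08), with 0.53 with the trend removed and 0.35 in TPM. Its change lay at percentile 83.6 of the 500 genes of like length, which had a median of 0.32, and at percentile 95.8 of all genes with the trend removed. It was the member that was higher and past the test under each scaling compared.

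Ninj1, on chromosome 13 at 49187529 to 49196251, was at 189, 208 and 195 FPKM across WT against 258, 242 and 243 FPKM in Gsdmd-/- samples. All 3 Gsdmd-/- samples were above WT as deposited. Ninj1 rose to 126% of WT as deposited (log2 change 0.33, SE 0.0390, adjusted p = 1.03e-05), and its change was 0.11 in TPM (adjusted p = 0.0116) and -0.24 with the trend removed (adjusted p = 3.23e-05). Its transcript is short (1187 bases) and rich in GC (60.4%), and genes of like length had a median change of 0.40. Direction for Ninj1 thus depends on the scale used.

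Ratios of 2 genes within a sample do not depend on how the sample is scaled, though they keep the length and GC trend. For the 7 ratios computed, an exact permutation test of 3 samples against 3 (two-sided) cannot go below p = 0.1, so none can pass the threshold. Casp4 over Casp1, 2 transcripts of nearly the same length and GC, was 0.445, 0.438 and 0.449 in WT and 0.586, 0.573 and 0.566 in Gsdmd-/- samples. All Gsdmd-/- ratios were higher, by 0.37 in log2 (exact p = 0.1, adjusted over the 7 ratios 0.117), and by 0.33 with the trend removed. The proportion of the 2 caspase transcripts thus differed between the groups by more than the samples of either group varied.

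Gsdmd over Casp1 was 0.354, 0.365 and 0.354 in WT and 0.0904, 0.0897 and 0.0954 in Gsdmd-/- samples, and Gsdmd over Casp4 went from a range of 0.787 to 0.833 to one of 0.154 to 0.169. Pycard over Nlrp3 was 0.328, 0.386 and 0.331 in WT and 0.735, 0.789 and 0.687 in Gsdmd-/- samples, without overlap. This ratio of adaptor to sensor was higher by 1.05 in log2 (exact p = 0.1), and by 0.25 with the trend removed. Nek7 over Nlrp3 was lower, at 0.481 to 0.508 against 0.606 to 0.631 in WT, a difference of -0.30 in log2 that was 0.07 with the trend removed. Casp1 over Pycard differed by -0.42, and by 0.22 with the trend removed. Ninj1 over Casp1 overlapped between groups (0.684 to 0.765 in WT and 0.749 to 0.819 in Gsdmd-/- samples, exact p = 0.2).

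**Figure D4:**
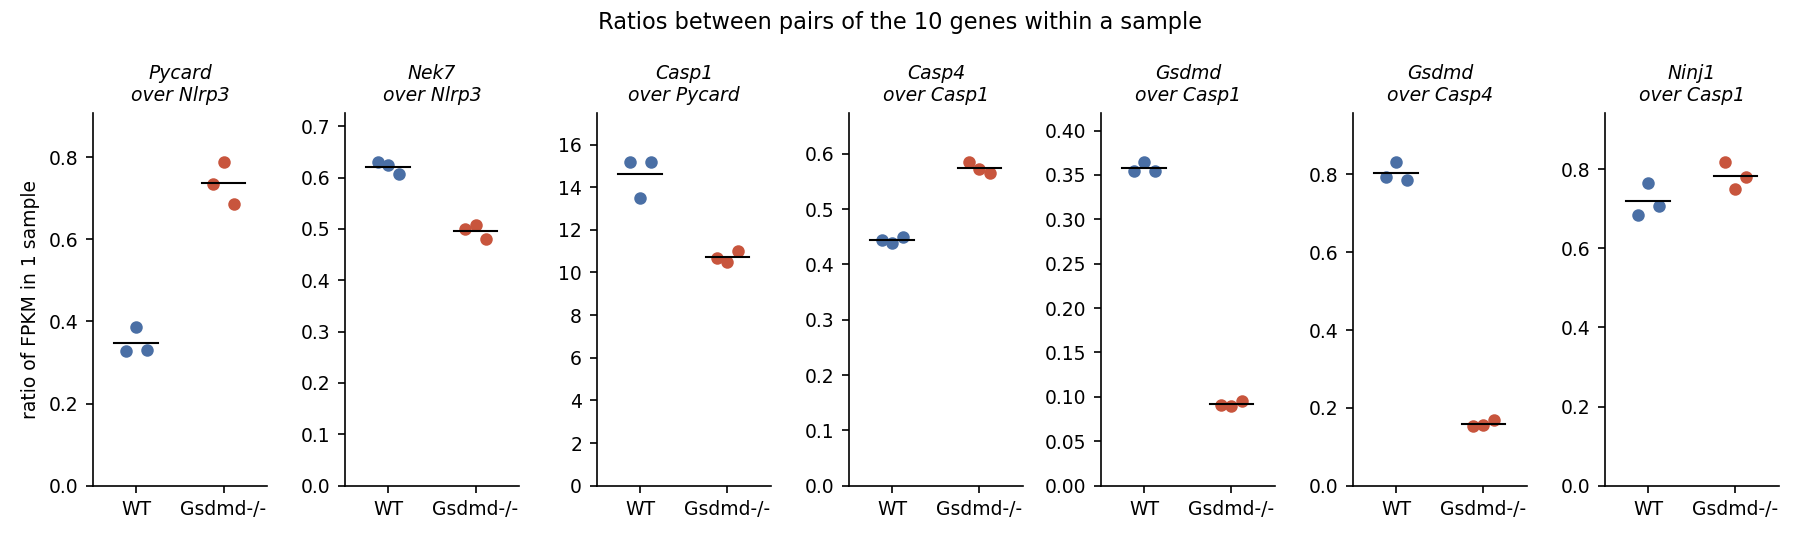
Ratio of FPKM values of 2 genes in each sample (y axis, from 0) for 7 pairs, in WT (blue) and Gsdmd-/- samples (red), with the group mean as a line. The Casp4 over Casp1 ratio is 0.438 to 0.449 in WT and 0.566 to 0.586 in Gsdmd-/- samples, and only Ninj1 over Casp1 overlaps between groups.

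Of 88 other genes listed for the pathway, 81 were in the tables and 66 were tested. Of these, 25 rose and 26 fell (77.3% of those tested, beside 77.5% of all tested genes), with a median log2 change of -0.01. With the trend removed 20 rose and 23 fell, and in TPM 12 rose and 39 fell. The share that passed was thus close to the background. For every list below, the counts are descriptions, to be read beside 40.6% of all tested genes higher and 36.9% lower as deposited. With the trend removed these shares were 30.3% and 29.9%.

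Among the other gasdermins, Gsdme, which encodes another pore protein, was the 1 tested of 6 in the tables. It rose from 1.02 ± 0.0961 to 1.71 ± 0.101 FPKM (mean and SD over 3 samples each, a log2 change of 0.43, adjusted p = 0.000180, 0.33 with the trend removed), still far below the level Gsdmd kept in Gsdmd-/- samples. WT samples alone, at 0.930 to 1.12 FPKM, would not have met the filter of 1 FPKM in 3 samples, so this rise is given as a description. Gsdma, Gsdma2, Gsdmc3, Gsdmc4 and Pjvk were at means of 0.1 FPKM or less in both groups.

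Other sensors rose in 1 and fell in 5 of 10 tested genes as deposited, and 4 rose and 1 fell with the trend removed, beside 40.6% and 36.9% of all tested genes as deposited and 30.3% and 29.9% with the trend removed. The median change of the list was -0.06 and, with the trend removed, 0.00. Naip6, of the NAIP receptors that serve NLRC4, fell from 6.69 ± 0.283 to 3.61 ± 0.0493 FPKM, and its change was -0.19 with the trend removed. Naip2 (18.4 ± 0.719 to 13.0 ± 0.426 FPKM), Nlrc5 (46.4 ± 2.51 to 35.0 ± 1.53 FPKM) and Nod2 (18.4 ± 0.387 to 15.8 ± 0.800 FPKM) fell as deposited and did not pass with the trend removed. Naip5 was at 8.61 ± 0.280 and 8.55 ± 0.281 FPKM (log2 change -0.01, adjusted p = 0.882) and rose by 0.42 with the trend removed (adjusted p = 1.49e-05). The others that rose on that scale were Aim2 (0.22), Nlrp1a (0.26) and Nlrp1b (0.46), with changes of 0.00, 0.06 and 0.19 as deposited. The NAIP genes are related copies, and how reads were shared among them is not given in the sources used here, so their values are held as uncertain.

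Among other proteases, 2 rose and 2 fell of 5 tested (2 and 1 once the trend was removed). Casp8, which can cut gasdermin D and also starts apoptosis, rose from 97.3 ± 0.470 to 121 ± 0.661 FPKM (a log2 change of 0.31, adjusted p = 5.15e-07, 0.28 with the trend removed and 0.09 in TPM). Casp6 went from 5.63 ± 0.718 to 6.97 ± 0.398 FPKM (a log2 change of 0.27), and did not pass with the trend removed (0.12) or in TPM (0.08).

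Of products released through the pore or after rupture, 4 rose and 2 fell (1 and 2 once the trend was removed). Both interleukin-1 genes fell: Il1a from 85.0 ± 4.25 to 54.4 ± 0.958 FPKM (a log2 change of -0.63, adjusted p = 3.25e-08), and Il1b from 269 ± 6.23 to 184 ± 2.46 FPKM (a log2 change of -0.55). With the trend removed they kept changes of -0.53 and -0.73. Lgals3 (galectin-3) and Ldha (lactate dehydrogenase) rose by 0.42 and 0.26 as deposited and were at -0.01 and 0.01 with the trend removed.

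Genes of NLRP3 activation and licensing moved both ways, 6 higher and 7 lower of 15, and 6 higher and 5 lower with the trend removed. Tlr4, the receptor for lipopolysaccharide at the cell surface, fell from 28.2 ± 1.57 to 13.5 ± 0.448 FPKM (a log2 change of -1.0, adjusted p = 6.49e-09), with -0.50 with the trend removed. Kcnk6, a potassium channel gene, fell from 13.2 ± 0.721 to 6.79 ± 0.216 FPKM, with -0.70 with the trend removed. Pstpip1, which encodes an adaptor that binds pyrin, rose from 63.6 ± 2.62 to 110 ± 2.26 FPKM (a log2 change of 0.78, 0.39 with the trend removed), and Sugt1, a co-chaperone gene, from 21.9 ± 1.0 to 28.4 ± 0.570 FPKM. The change of Sugt1 was 0.36 as deposited, 1.02 with the trend removed and 0.15 in TPM.

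In the list for the non-canonical pathway, 2 of 11 tested genes rose and 5 fell (1 and 7 once the trend was removed). The interferon-induced GTPase genes Irgm2 and Gbp7 fell from 229 ± 0.591 to 124 ± 1.99 FPKM and from 123 ± 5.42 to 63.8 ± 2.70 FPKM, with -0.66 and -0.37 with the trend removed. Gbp2 rose from 836 ± 13.0 to 1120 ± 4.64 FPKM as deposited, with 0.48 with the trend removed and -0.01 after quantile normalization. As deposited, Casp4 moved in the same direction as Gbp2 and opposite to Tlr4, Irgm2 and Gbp7. The list went both ways, and 4 of its 11 tested genes did not pass.

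Pyrin regulators other than Pstpip1 included Pkn2, a kinase gene, which fell from 8.40 ± 0.558 to 4.05 ± 0.114 FPKM (-0.29 with the trend removed). Mvk, a gene of isoprenoid synthesis, rose by 0.45 as deposited, with 0.00 with the trend removed. In all, 3 of 7 rose and 1 fell (3 and 2 once the trend was removed).

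Of the thioredoxin genes, Txn1 rose from 239 ± 4.12 to 367 ± 10.8 FPKM (a log2 change of 0.62, adjusted p = 4.60e-09, 0.34 with the trend removed). Txn2, the mitochondrial form, rose by 0.47 as deposited and was at 0.00 with the trend removed. Txnrd1, which reduces thioredoxin, fell from 59.7 ± 1.14 to 47.0 ± 0.775 FPKM (-0.27 with the trend removed). Of 5 tested genes in this list 3 rose and 2 fell (2 and 2 once the trend was removed).

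Among genes of pore assembly and membrane rupture, 4 of 9 tested rose and 3 fell (1 and 5 once the trend was removed). Zdhhc5, which encodes an acyltransferase reported to act on gasdermin D, fell from 45.1 ± 0.864 to 25.7 ± 0.923 FPKM, with -0.49 with the trend removed. The Ragulator genes Lamtor4, Lamtor2 and Lamtor1 rose by 0.81, 0.56 and 0.33 as deposited, and with the trend removed they were at 0.22, -0.11 and -0.19. Ninj2, the relative of Ninj1, was at 0.0633 and 0.153 FPKM, under the filter.

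**Figure D5:**
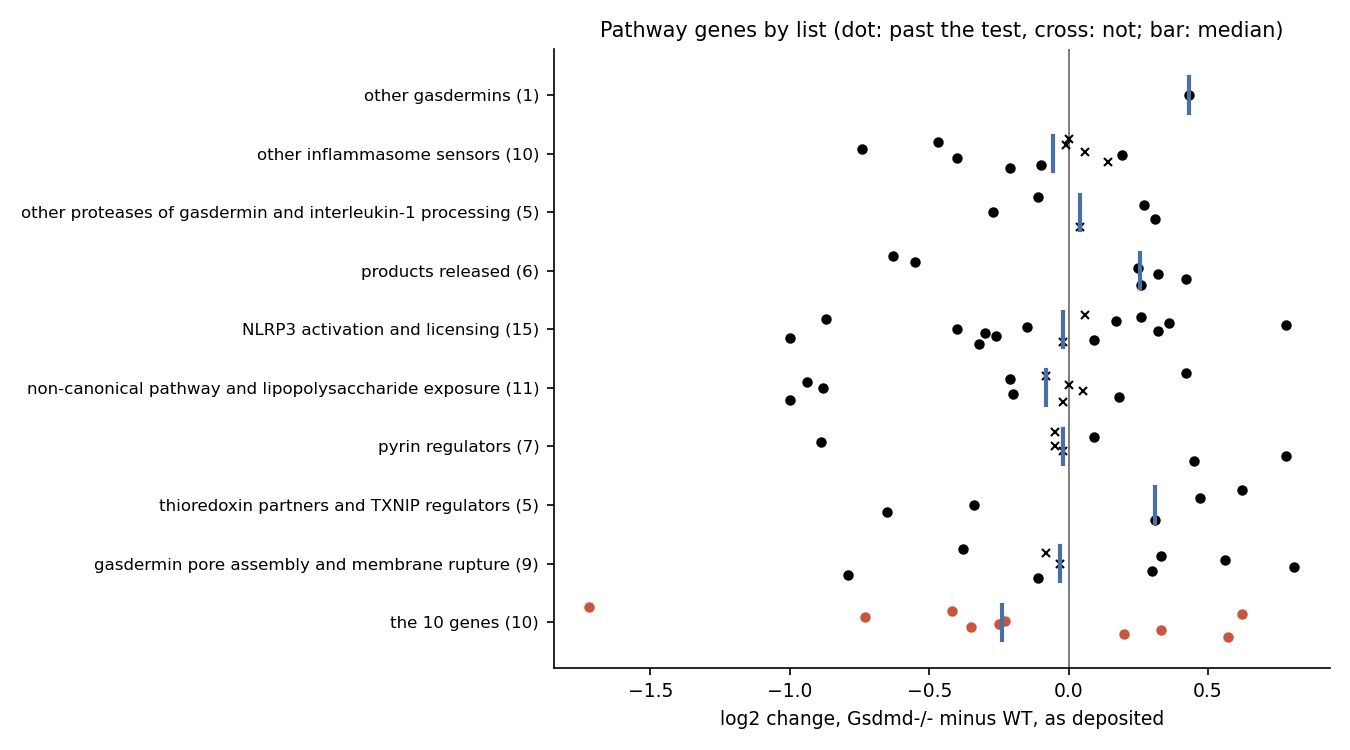
Log2 change, Gsdmd-/- minus WT, as deposited (x axis) of the tested genes of each list, with the number tested in parentheses, dots for genes past the test, crosses for the others and a bar at the median. Each list of 5 or more genes has members on both sides of 0, and the 10 genes (red) have a median of -0.24.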

How the data were processed

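RNA sequencing libraries of sorted colon macrophages were run on a BGISEQ-500, per the labels' protocols. The submitters' processing notes list Bowtie2 version 2.2.5 and the build GRCm38.p6 without their roles. How gene values were computed, with which annotation, strand setting or filters, is not given in the sources used here. Deposited values carry no unit and were read as FPKM, since sums differ between samples (476271 to 565388) and low values step with transcript length, which also gave the depth estimates. In simulated data limma recovered 48.5% of genes changed by 0.25 in log2 and 89.4% of those changed by 0.5 among 10005, and called 0.0918% of unchanged ones. Few genes were given a change there, with independent noise, while 77.5% were called in these data. The simulated rates therefore check the working of the test and do not carry over to these data.

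Genes with at least 1 FPKM in at least 3 samples were tested with limma version 3.58.1 (trend and robust, R version 4.3.3) on log2(FPKM + 1), pseudocount 1, with Benjamini-Hochberg adjustment over all tested genes. For the trend removal, splines (5 degrees of freedom each) on transcript length and GC content, from GENCODE M21 coding transcripts no longer than the RefSeq gene, were fitted to each sample's deviation from the gene mean. A length was found for 97.7% of tested genes. With a simulated trend over 9777 genes, 76.2% of unchanged genes were called before its removal and 0.0835% after it. The simulated trend was linear in log2 length and in GC, which splines on the same variables can fit, and few genes were given a change. This checks the working of the fit only, and cannot show how well the trend in these data was removed. The 10 genes and all lists were chosen with earlier results of these data known. Named list genes are the up to 4 with the smallest p per list, some of which are not reported here, and others named with a value (Mlxipl, Ninj2, Naip5, Aim2, Nlrp1a, Nlrp1b, untested gasdermins, markers) were chosen after their values were seen. Fragments per gene were estimated from FPKM, length and depth, and cover counting error only. Coordinates are RefSeq positions, counted from 1.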

Additional observations from a re-analysis of the deposited data

How the results depend on the processing

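Alternatives were other pseudocounts (0.1 and 0.01), no filter, a filter at 5 FPKM, TPM, median-of-ratios scaling, quantile normalization, the length and GC trend removed, a replicate block, plain limma settings and each sample left out, and for Pycard a longer transcript, chosen after seeing the data (0.91, 3 of the 10 higher). Gsdmd, Nlrp3, Nek7, Mefv, Txnip and Casp4 kept their direction and their call under every alternative run, except that Mefv and Nlrc4 were not tested at 5 FPKM. With the trend removed, with or without the replicate block, Ninj1 (-0.24), Lamtor1 (-0.19) and Lamtor2 (-0.11) passed in the opposite direction. Pycard (-0.02), Nlrc4 (0.16), Lgals3 (-0.01), Mvk (0.00) and Txn2 (0.00) lost their call there, with a change near 0 or of the other sign. The ratios Nek7 over Nlrp3 (0.07), Casp1 over Pycard (0.22) and Ninj1 over Casp1 (-0.45) changed sign with the trend removed, and 2 of the 10 genes rose in place of 4. Casp1 lost its call in TPM (-0.02) and after quantile normalization (-0.04), as did Gbp2 after quantile normalization (-0.01). Ldha passed in the opposite direction after quantile normalization (-0.20). In TPM 2498 genes rose in place of 4059, and 12 in place of 25 pathway genes. The cause was not tested.

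Leaving out 1 sample gave -1.74 to -1.71 for Gsdmd, -0.45 to -0.40 for Nlrp3, 0.60 to 0.67 for Pycard, -0.75 to -0.70 for Nek7, -0.29 to -0.18 for Nlrc4, -0.27 to -0.21 for Mefv, -0.36 to -0.33 for Txnip, 0.30 to 0.37 for Ninj1, 0.19 to 0.22 for Casp1 and 0.56 to 0.60 for Casp4. Of the 10, only Nlrc4 lost its call. The replicate numbers did not pair the samples: same-numbered samples correlated at -0.0818, 0.132 and 0.0143 across genes, and not every sample correlated best with its own number. With the replicate block 4095 genes rose and 3706 fell, and Gsdmd had a change of -1.72. Low counts limit Nlrc4 and Mefv the most.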
